A study of Rattus norvegicus with 2 samples.

Results

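Single-exon transcripts that matched a model of the reference annotation were described in the merged transcript annotation of rat femur. A transcript model is a set of exons reported by an assembly of aligned RNA reads, and the class code "=" marks a model that matched a reference transcript. Whether the ends of a matched model come from the reads or from the reference transcript is not given. Its length may therefore be that of the reference. Members were the models with this code and exactly 1 exon. They numbered 842 of the 5963 models with the code (14.1%) and of 43391 models in all (1.94%), and they lay in 837 genes. The other 5121 models with the code had 2 or more exons and served for comparison. The annotation held 3882 single-exon models of any class, of which the members made up 21.7%.

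The RNA came from femur tissue of wild-type Wistar rats. The labels used here name 1 rat with bilateral ovariectomy (OVX), which removes the ovaries and serves as a model of osteoporosis after oestrogen loss, and 1 rat with a sham operation (SHAM). Both labels give 16 weeks, but the study's methods describe more than 1 rat per group and another time of feeding, and the labels also carry the words old and young. The annotation merges 2 assemblies and records for each model whether it was found in 1 or in both. Which assembly belongs to which operation is not given, and no file analysed here holds a count, a coverage or an expression value, so the depth is unknown and OVX was not compared with SHAM. Of 12 osteoblast and osteocyte markers, 11 had a model by name, as did 4 of 5 skeletal muscle markers and 3 of 6 blood and marrow markers. None of the markers was a member. Among those without a model by name were Hbb, Hba1 and Elane.

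Most mammalian genes are split by introns, which are removed from the RNA by splicing. Genes without introns include the replication-dependent histones, some immediate-early transcription factors and many G protein-coupled receptors. Some intronless genes arose as retrocopies, in which a spliced RNA was copied back into the genome. For a model of several exons the match to the reference rests on the chain of introns. A single exon has no such chain, so its match rests on the overlap of the exons alone.

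Histones are the proteins around which DNA is wound, and H1 is the linker histone. By name, 6 members were histones, and all 6 were recorded in both assemblies. Of all 118 members without a locus name of the form rCG and a number, 84 were in both (71.2%). The 6 histones were H1f4 (789 bp), Hist1h1a (H1f1 in the current annotation, 744 bp), Hist1h2bp (H2bc8, 381 bp), Hist2h4 (H4c14, 396 bp), H2a (H2ac25, 2276 bp) and the replacement linker histone H1f0 (1978 bp). A seventh symbol, H1f10, was found through an older locus number. The other histone-named models with the code had several exons and numbered 3.

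The stretches before the start of 5 of these genes are shown because histone genes are a textbook case of intronless genes with short promoters. Each stretch covers 250 bases before the start of the RefSeq gene in the build GRCr8, 5′ to 3′ on the gene's own strand. Capitals mark CCAAT, the box bound by the factor NF-Y, and TATAAA, a form of the TATA box, on either strand. ATTGG is CCAAT read on the other strand, and the 2 motifs do not overlap. Only these exact letters were searched, so a stretch without TATAAA may hold another form of the TATA box.
H1f1, chr17:41794869-41795118, minus strand: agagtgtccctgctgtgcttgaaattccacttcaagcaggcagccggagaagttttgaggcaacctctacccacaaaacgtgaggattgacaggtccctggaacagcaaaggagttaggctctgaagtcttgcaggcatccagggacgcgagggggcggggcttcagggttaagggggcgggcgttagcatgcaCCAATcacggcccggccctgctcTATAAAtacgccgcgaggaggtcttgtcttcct
H1f4, chr17:41914175-41914424, plus strand: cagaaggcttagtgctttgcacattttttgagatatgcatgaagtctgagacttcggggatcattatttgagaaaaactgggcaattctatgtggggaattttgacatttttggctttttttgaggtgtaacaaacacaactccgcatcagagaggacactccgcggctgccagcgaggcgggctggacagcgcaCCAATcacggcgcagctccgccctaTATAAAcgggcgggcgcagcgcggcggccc
H2bc8, chr17:47404155-47404404, plus strand: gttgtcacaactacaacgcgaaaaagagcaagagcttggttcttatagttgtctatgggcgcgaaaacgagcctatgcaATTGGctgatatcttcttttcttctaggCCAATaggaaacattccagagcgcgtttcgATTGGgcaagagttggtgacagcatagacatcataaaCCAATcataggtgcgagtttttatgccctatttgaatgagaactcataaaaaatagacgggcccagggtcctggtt
H2ac25, chr10:44233033-44233282, plus strand: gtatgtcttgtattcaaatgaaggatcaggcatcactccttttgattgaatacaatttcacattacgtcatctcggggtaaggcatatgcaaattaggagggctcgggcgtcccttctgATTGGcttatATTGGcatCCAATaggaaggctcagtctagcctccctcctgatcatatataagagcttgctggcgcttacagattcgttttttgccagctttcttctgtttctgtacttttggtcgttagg
H1f0, chr7:112473030-112473279, plus strand: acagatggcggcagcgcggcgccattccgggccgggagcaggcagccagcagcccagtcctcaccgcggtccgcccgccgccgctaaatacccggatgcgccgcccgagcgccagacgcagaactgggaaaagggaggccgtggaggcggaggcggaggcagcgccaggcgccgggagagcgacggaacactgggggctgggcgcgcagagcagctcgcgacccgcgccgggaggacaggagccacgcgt
H1f1 and H1f4 each held 1 CCAAT followed by 1 TATAAA. In H1f1 they began 56 and 33 bases before the start, and in H1f4 they began 55 and 30 bases before it. H2bc8 held 4 CCAAT on the 2 strands and H2ac25 held 3, both without TATAAA. H1f0 held neither, and its 300-base window had a GC content of 73.0%. H1f10, whose stretch is not shown, also held neither, and its window had a GC content of 75%. Of the 6 histone symbols with such a window, 4 held CCAAT (66.7%) and 2 held TATAAA (33.3%). The name behind H2bc8 was matched through an older symbol and its current place is not between the genes that flank the member, so this match between near-identical histone genes is uncertain.

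Over all members, 110 symbols lay on the same chromosome in the file and in GRCr8, and 86 had a promoter window of 300 bases (250 before and 50 after the start). TATAAA stood on either strand in 10 of them (11.6%), against 164 of 2102 genes with a multi-exon match (7.80%) and 14.3% of all 27457 windows. CCAAT stood in 37 (43.0%), against 38.2% of the genes with a multi-exon match and 37.7% of all windows. The median GC content was 58.8% for the members, 61.0% for the multi-exon genes and 52.3% for all windows. These windows cover only members with a symbol, and a match of letters is not a binding site.

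Members were not spread evenly over the genome. The chromosome of each sequence was read from the symbols on it, and 99.1% of 5320 symbols pointed to the same chromosome as their neighbours. Members made up 39.1% of the matched models on chromosome 17 (66 members, 95% Wilson interval 32.0 to 46.6), 26.0% on the X chromosome (32 members, 19.1 to 34.4) and 23.8% on chromosome 6 (60 members, 19.0 to 29.4). At the other end stood chromosome 20 with 8.13% (5.14 to 12.6) and chromosome 12 with 8.99% (5.69 to 13.9). Their intervals did not overlap those of chromosomes 17, X and 6, and like all intervals given here they cover counting only, since models of 1 annotation are not replicates.

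**Figure D1:**
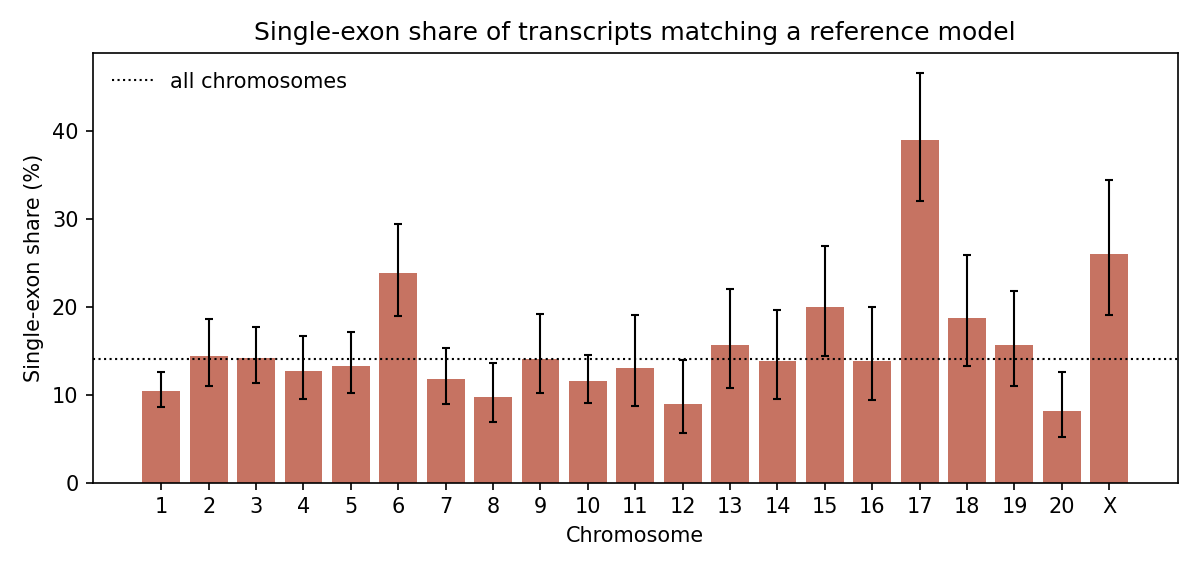
Bars show the members as a percentage of all models with the class code "=" on each chromosome, whiskers are 95% Wilson intervals, and the dotted line is the share over all chromosomes. Chromosome 17 stands highest at 39.1%, followed by X at 26.0% and chromosome 6 at 23.8%.

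Neighbouring members were then joined where less than 250 kb lay between them, a distance chosen after the data had been seen. Groups of 5 or more held 94 members in 9 stretches, and the 9 stretches, read out to the nearest named genes on both sides, held 108. Most of these members carry a locus name of the form rCG and a number, which matched no current symbol, so each stretch was described by its flanking genes. Positions are those of the file, whose build the submitters' processing notes name as rn4. That naming could not be checked here. The sequences bear GenBank names and many loci rCG names, and neither was matched to rn4. The positions should therefore not be used as rn4 coordinates. Current genes between the same flanks were counted by symbol in GRCr8 without use of its coordinates in the text.

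Between Cmahp and Abt1 on chromosome 17 lay 26 members in 403 kb (chr17:40803000-41206307), among them H1f4, Hist1h1a and Hist1h2bp. Each of the 26 was the only model of its gene, and only 1 multi-exon model with the code lay in the same stretch. Their lengths ran from 276 to 2639 bp with a median of 472 bp, 14 lay on the plus strand and 12 on the minus strand, and 22 were recorded in both assemblies. GRCr8 lists 76 genes between these flanks, of which 21 carry a histone symbol. A second stretch on chromosome 17 (chr17:53219001-53983537), between Trim27 and Wdr37, held 15 members and no multi-exon match, and all 15 were recorded in both assemblies. The models Hist1h2bn and Hist1h4b, which are not members, lay among them. In GRCr8 the flanks of this second stretch enclose no histone symbol and 220 genes, so its order differs from that of the file. The third histone stretch, between Vps45 and Fcgr1a on chromosome 2 (chr2:176248686-176365275), held 7 members including Hist2h4, of which 5 were in both assemblies, and GRCr8 lists 8 histone symbols among the 19 genes there.

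These 3 stretches each held a histone-named model, but most of their members have rCG names and were not identified singly. In them, 42 of 48 members were recorded in both assemblies (87.5%, 75.3 to 94.1), against 475 of 794 other members (59.8%, 56.4 to 63.2). The lengths repeated themselves. There were 4 members of exactly 381 bp, 4 of 393 bp, and 2 each of 312, 375, 382 and 411 bp. In the 3 stretches, 30 of 48 lengths were multiples of 3 (62.5%, 48.4 to 74.8), as a coding sequence without untranslated ends would be. Among the other members this held for 39.9% (36.6 to 43.4), and among the multi-exon models for 33.9% (32.6 to 35.2). Without the 2 stretches on chromosome 17, 25 members and 102 multi-exon models remained there, a share of 19.7% (13.7 to 27.4).

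Chromosome 6 held the stretch between Adam6 and Dync2i1, with 25 members over 4058 kb (chr6:130208659-134267140). Of these, 24 lay on the minus strand and the lengths centred on a median of 292 bp, from 232 to 809 bp. Adam6 is known to lie beside the immunoglobulin heavy chain locus, and GRCr8 lists 145 genes of the V segment type among the 175 genes between these flanks. V segments are joined to D and J segments in developing B cells, which mature in the bone marrow. Only 7 of the 25 members were the sole model of their gene, and 15 multi-exon matches lay in the same stretch. In this they differed from the members of the histone stretches on chromosome 17, most of them not identified as histones, which with 1 exception stood alone in their gene. The assemblies also differed here, with 13 members in both, 11 in the first alone and 1 in the second alone. The numbering of the models separates a first from a second assembly, but neither could be assigned to OVX or SHAM. Over all members found in 1 assembly, 176 were in the first and 149 in the second. Without this stretch the members made up 16.5% of the matched models on chromosome 6 (12.1 to 22.1).

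Between Dnd1 and Diaph1 on chromosome 18 lay 10 members (chr18:28708489-29103205), of which 9 had rCG names, stood on the plus strand and measured 2340 to 4119 bp. The tenth was Slc25a2 (1197 bp), a mitochondrial ornithine carrier, on the minus strand. GRCr8 lists 22 Pcdhb symbols among 58 genes there. These are the beta protocadherins, cell adhesion proteins whose genes each consist of 1 exon. Only 3 of the 10 were in both assemblies (interval of the share 10.8% to 60.3%), 1 was in the first alone and 6 were in the second alone. The order was thus the reverse of that in the V segment stretch. Since the assemblies were not assigned to a group, these counts give no comparison of OVX with SHAM.

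On chromosome 10, between Tmem106a and Arl4d (chr10:85257132-85315764), 5 members had the same length of 187 bp within 58.6 kb. They were rCG_33786, rCG_35498, rCG_34091 and rCG_34394 on the plus strand and rCG_32656 on the minus strand, and all but rCG_34394 were in both assemblies. GRCr8 lists 4 small nuclear RNA genes among the 9 genes between these flanks. Small nuclear RNAs are the RNA parts of the splicing machinery. A length of 187 bp occurred in 8 members in all, 6 on chromosome 10 and 2 on chromosome 9, and in no multi-exon model. Other recurrent short lengths were 66 bp, with 6 members on 4 chromosomes, and 127 bp, with 5 members on 3 chromosomes.

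**Figure D2:**
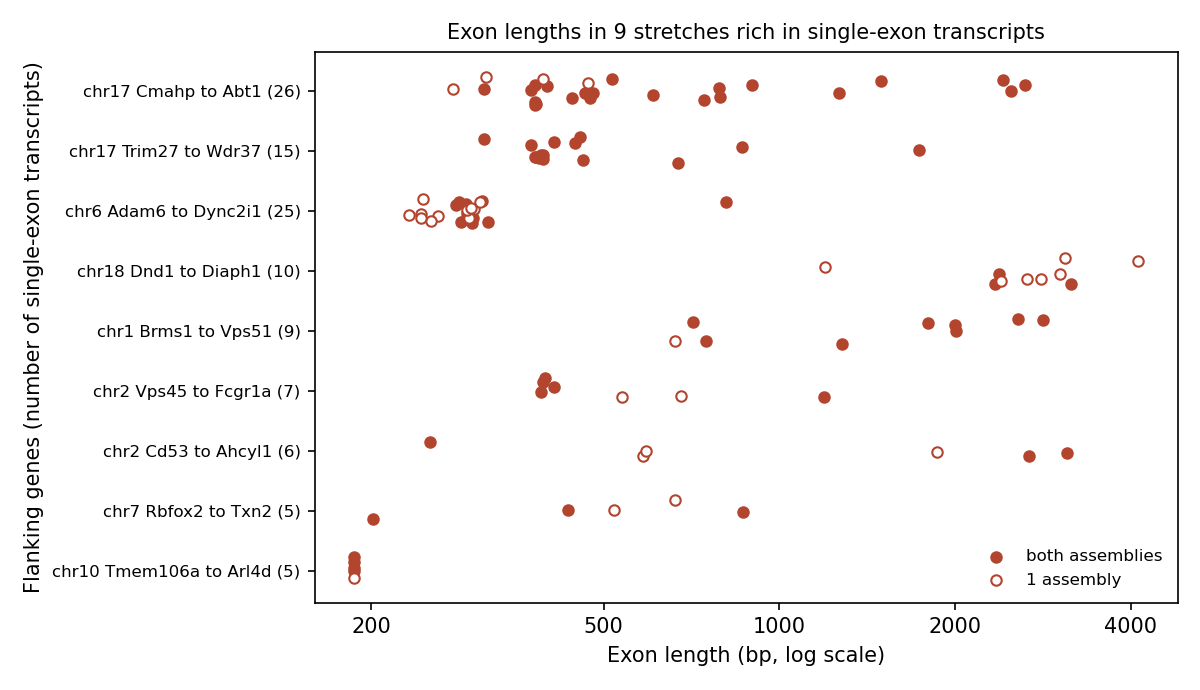
Each point is a member, placed by its exon length on a log scale within 1 of the 9 stretches named by chromosome and flanking genes. Filled points were recorded in both assemblies and open points in 1; vertical jitter has no meaning. The 5 members between Tmem106a and Arl4d share the length of 187 bp, and those between Dnd1 and Diaph1 reach 4119 bp.

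Members were shorter than multi-exon models. The median exonic length was 873 bp (95% order-statistic interval 762 to 1026) against 1583 bp (1536 to 1623), and the middle portion of the members ran from 390 to 1881 bp between the lower and upper quartile. Under 200 bp there were 70 models in the whole annotation, all with the code "=", and 58 of them were members. Whether these lengths are those of the reference entries was not tested. The longest members were rCG_52205 with 12736 bp, rCG_38814 with 9660 bp, rCG_33907 with 6930 bp, Znf292 with 6733 bp and Pkdrej with 6350 bp. The zinc finger gene Znf292 is known as a gene of several exons. Pkdrej belongs to the polycystin family and was found in 1 assembly. The shortest were rCG_31977 with 31 bp, rCG_45518 with 40 bp, rCG_40091 with 50 bp, rCG_49554 with 54 bp and rCG_40675 with 66 bp. A length of 66 bp was shared by 6 members, of which rCG_40675 comes first by position. All 6 were in both assemblies, as was rCG_31977.

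**Figure D3:**
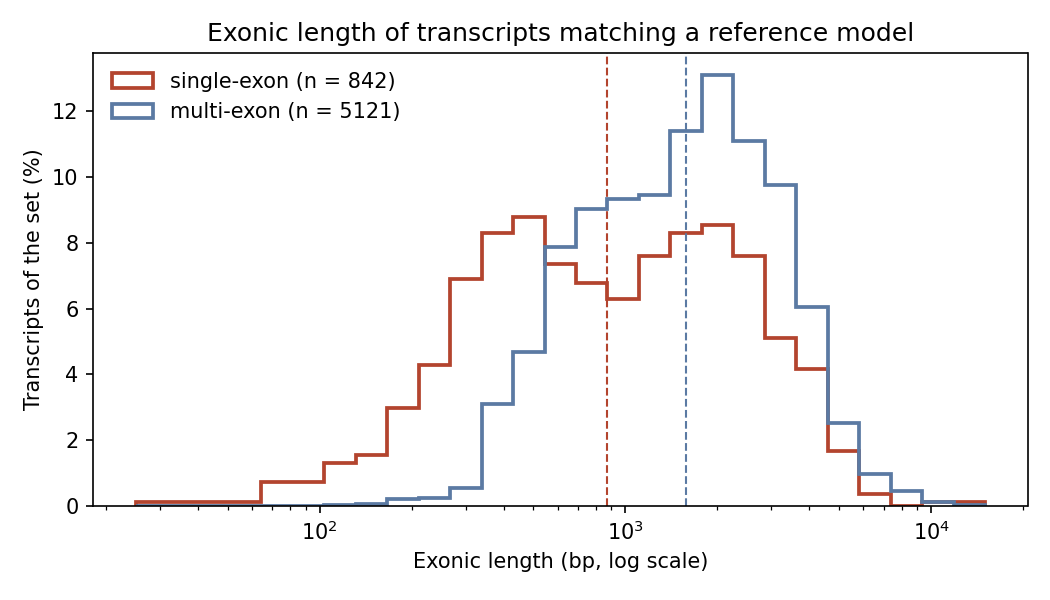
Outlines give the percentage of the 842 members and of the 5121 multi-exon models in each bin of exonic length, on a log scale, and dashed lines mark the medians. The members reach down to 31 bp and their median of 873 bp lies below the multi-exon median of 1583 bp.

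A known symbol was rarer among the members. Of 842 names, 724 had the rCG form (86.0%, 83.5 to 88.2), against 1634 of 5121 multi-exon models (31.9%, 30.6 to 33.2). The difference was 54.1 percentage points (95% Newcombe interval 51.3 to 56.6). Of the 118 other names, 77 equalled a current symbol, 37 an older one and 4 neither. Members with such a name were longer, with a median of 1895 bp (1559 to 2276) against 713.5 bp (638 to 794) for those with rCG names.

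Of the 114 members with a symbol, 113 are protein coding in the current annotation, and the remaining one, Apeg3, is a long non-coding RNA. None is listed as a pseudogene, and none of the 3311 multi-exon models with a symbol is either. The 724 members with rCG names matched no symbol and could not be scored, so the limit that follows covers named members only. With 114 members a count of 0 allows a share of up to 2.63% (3 counts of the total), and the upper end of its Wilson interval was 3.26%. The symbols of 4 members lie on another chromosome in GRCr8 (3.51%, 1.37 to 8.68), against 26 of 3311 multi-exon models (0.785%, 0.536 to 1.15). The difference was 2.72 percentage points (0.557 to 7.90). Marcksl1, a relative of the MARCKS protein, lay on chromosome 1 in the file with 873 bp and is listed on chromosome 5. A model named Clp1 lay on chromosome 10 with 3730 bp. The gene now listed as Clp1, an RNA kinase of pre-mRNA and tRNA processing, is on chromosome 3, and the model may be another gene. Ube2d2, a ubiquitin-conjugating enzyme, lay on chromosome 14 with 1516 bp and is listed on chromosome 18. The locus RGD1566014, now F8a1, lay on chromosome 1 with 1515 bp and is listed on X. All but Ube2d2 were in both assemblies. Reads of a gene and of a near-identical copy cannot be told apart in these files. Whether these 4 are retrocopies, misplaced names or other genes under the same symbol was not tested.

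Of 27 genes listed as textbook intronless genes, 9 were members, 1 (H2afx) had models of other classes only and 17 had no model by name. All 9 were recorded in both assemblies, as were 84 of the 118 members without rCG names (71.2%, 62.4 to 78.6). Each of the 9 was the sole model of its gene, as were 85.7% of all members. Transcription factors among the 9 were Jun (3142 bp), a subunit of AP-1, Cebpa (2664 bp), which acts in myeloid and fat cells, and the immediate-early gene Ier2 (3475 bp). Also among them were the small GTPase Rhob (2367 bp), thrombomodulin Thbd (3662 bp), the tight junction protein Cldn5 (1432 bp) and H1f0. Id1, an inhibitor of helix-loop-helix factors, is not on this list but was a further member in the group of transcription factors. It shared its gene with 1 other model, which had several exons.

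G protein-coupled receptors were grouped by patterns in their names, which found 12 members and 16 multi-exon models. Of the 12 members, 7 were in both assemblies, among them Fzd1 (4668 bp), a receptor for Wnt ligands, the apelin receptor Agtrl1 (now Aplnr, 3667 bp), Adra2a (3107 bp), the proton sensor Gpr4 (2866 bp), Gpr109a (now Hcar2, 1960 bp) and the formyl peptide receptor Fpr1 (1208 bp). The remaining 5, each in 1 assembly, were Sstr4, Gpr27, Ccr1l1, Fzd9 and Mc5r. The sphingosine 1-phosphate receptor Edg6 (now S1pr4, 2277 bp), in both assemblies, fell outside these patterns and is not among the 12. Potassium channels numbered 3, namely Kcnj11 (3111 bp), Kcna3 (3110 bp) and Kcna5. Further named members in both assemblies were the kelch protein Klhl9 (4185 bp), Ubqln2 (3421 bp), polyubiquitin Ubb (392 bp), the leucine-rich repeat proteins Lrrc4 (2541 bp) and Amigo3 (1527 bp), the small heat shock protein Hspb3 (740 bp) and 3 genes under locus numbers, Flrt1 (5461 bp), Kbtbd11 (4102 bp) and Tspy26 (3176 bp). No member was named as a ribosomal protein, against 50 multi-exon models, and none as a chemosensory receptor, a group that had no multi-exon model either.

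Most members stood alone. Of the 842, 722 were the only model of their gene (85.7%, 83.2 to 87.9), against 1194 of 5121 multi-exon models (23.3%, 22.2 to 24.5), a difference of 62.4 percentage points (59.6 to 64.9). All 120 members that shared a gene shared it with a multi-exon model. The most crowded was rCG_30796 on chromosome 5 (chr5:155120166-155121758), with 31 other models in its gene, followed by rCG_60261 with 12, rCG_30927 with 10, rCG_47055 with 9 and rCG_53648 with 8, a number it shared with rCG_23833, rCG_41919 and rCG_45257. In 4 genes more than 1 member occurred. The gene of Kcna3 also held rCG_28831 (2679 bp), and a gene on chromosome 12 held 3 members, rCG_21219 (1002 bp), rCG_21599 (128 bp) and rCG_21101 (114 bp). The other 2 such genes held rCG_47672 with rCG_48165 on chromosome 1 and rCG_54709 with rCG_54711 on chromosome 16.

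Members lay inside other genes more often. The whole model lay within the span of another named gene for 101 members (12.0%, 9.97 to 14.4) and for 46 multi-exon models (0.898%, 0.674 to 1.20). The difference was 11.1 percentage points (9.05 to 13.5). The span of a multi-exon model includes its introns, while that of a member is its exon. Models of like span were not compared. On the strand opposite to the host lay 62 members and on the same strand 39. Lrrc4, a synaptic adhesion protein, lay opposite to Snd1, and Flrt1, a leucine-rich repeat membrane protein, lay opposite to Lrp16. Amigo3 lay opposite to rCG_25482. On the same strand as the host were Slc5a3 (2216 bp), the myo-inositol transporter, Galnt4 (4988 bp), a glycosyltransferase, and Omp (2185 bp), the olfactory marker protein, whose host was Capn5. Whether the reads were counted by strand is not given in the sources used here, and the share of members that share at least 1 base with an exon of another gene was 9.26%, against 4.63% of the multi-exon models. No member's gene was on the authors' list of 1507 new genes, and every member matches a reference transcript by definition.

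Recurrence between the 2 assemblies was compared last. Recorded in both were 517 of 842 members (61.4%, 58.1 to 64.6) and 2479 of 5121 multi-exon models (48.4%, 47.0 to 49.8), a difference of 13.0 percentage points (9.39 to 16.5). This order turned round among models that stood alone in their gene, where 431 of 722 members (59.7%, 56.1 to 63.2) and 801 of 1194 multi-exon models (67.1%, 64.4 to 69.7) were in both, a difference of -7.39 points (-11.9 to -2.95). In genes with several models it was 86 of 120 members (71.7%, 63.0 to 79.0) against 1678 of 3927 multi-exon models (42.7%, 41.2 to 44.3). The pooled difference therefore depends on how many models the genes hold, and it does not say that a single-exon gene was found more regularly. Standing alone was counted in the merged annotation. A gene for which the 2 assemblies gave differing models is thus never in the lone set. The lone set is in part selected for recurrence, so its shares do not say which kind of gene was found more regularly. How far this affects either kind was not tested.

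Length divided the lone models further. Below 500 bp, 139 of 228 lone members were in both (61.0%, 54.5 to 67.1), against 33 of 95 lone multi-exon models (34.7%, 25.9 to 44.7). From 1000 to under 2000 bp it was 90 of 175 (51.4%, 44.1 to 58.7) against 283 of 380 (74.5%, 69.9 to 78.6). In the bands from 500 to under 1000 bp, from 2000 to under 4000 bp and from 4000 bp, the intervals of the difference included 0. From 2000 to under 4000 bp, 101 of 137 lone members were in both (73.7%, 65.8 to 80.4). By number of exons, lone models with 2 exons were in both in 43.3% (38.3 to 48.5), with 3 exons in 54.7% (48.1 to 61.0), with 4 exons in 72.3% (65.0 to 78.5) and with 8 or more in 98.5% (95.7 to 99.5). The lone members at 59.7% lay between the lone models of 3 and 4 exons, with an interval that overlapped that of 3 exons. Among multi-exon models in genes with several models, the share fell with the number of exons instead. It was 55.9% (52.0 to 59.7) with 2 exons and 35.7% (33.0 to 38.4) with 8 or more.

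**Figure D4:**
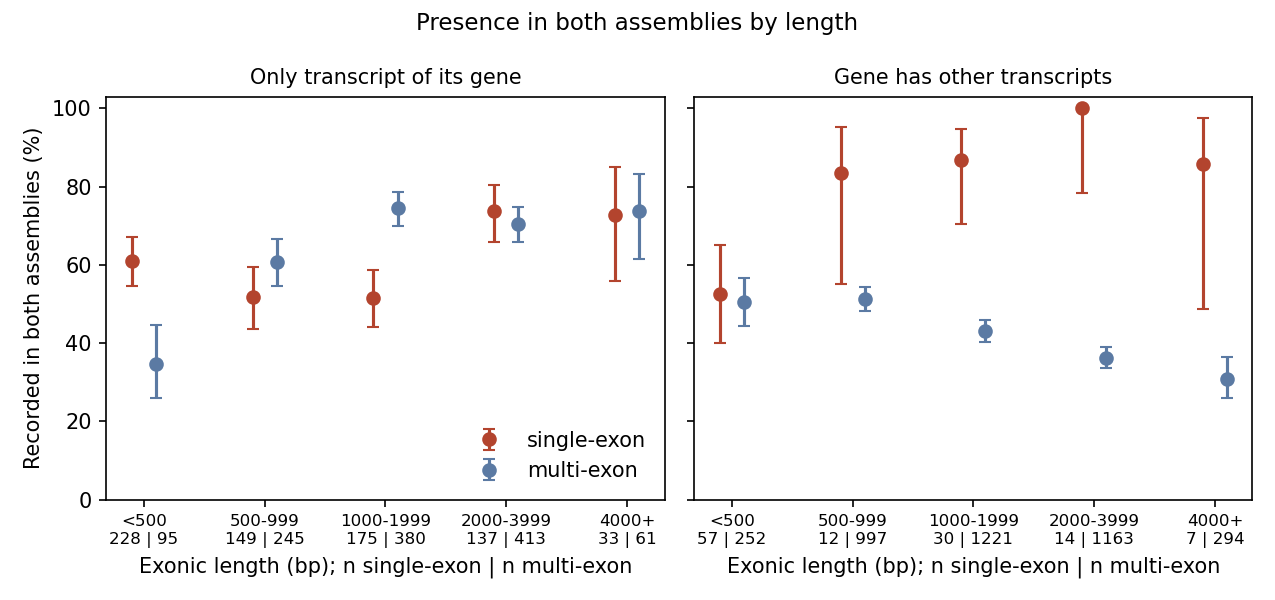
Points give the percentage of models recorded in both assemblies by exonic length, with 95% Wilson intervals, for single-exon members and multi-exon models, and the numbers under each band are their counts. Among models alone in their gene (left) the members have the higher share under 500 bp and the lower share from 1000 to under 2000 bp, and in genes with several models (right) the members lie above the multi-exon models in the 4 bands from 500 bp.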

How the data were processed

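The deposited files give the positions of assembled transcripts and of the genes the authors listed as new. The authors' tools, per the labels, were FastQC, HISAT2, StringTie and featureCounts with the build rn4; versions are not given in the sources used here. The files hold no counts, so the planned OVX against SHAM comparison was not run, and depth is unknown.

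Members, gene groups and lists were chosen with earlier results of these data known. Models were read with Python 3.11.15 and scipy 1.17.1; shares have 95% Wilson intervals, differences Newcombe intervals and medians order-statistic intervals, with no test, because models are not replicates. Reading, counting and interval steps were tested on simulated data. Names were matched to GRCr8 symbols without case, after removal of endings for predicted or mapped genes. Named members were the textbook genes, the 5 longest and 5 shortest, the 3 longest in both assemblies per gene group, those sharing a gene, and the 5 with most models in their gene; those in stretches, inside other genes or listed on another chromosome, and the other receptors and channels, were chosen after their values were seen. Protein identity was not analysed here, and some members the rule names are not reported here.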

Additional observations from a re-analysis of the deposited data

How the results depend on the processing

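The number of members was 842 models, 837 genes, 722 when genes with a multi-exon model were left out, and 517 when only models in both assemblies were kept. The share in both assemblies moved from 61.4% to 65.9% for members of 1000 bp or more, and stayed between 59.7% and 62.0% under the other 4 alternatives. The difference from the multi-exon models turned from 13.0 to -7.39 percentage points when only models alone in their gene were compared, and lay between 11.8 and 18.9 points otherwise. The median length moved from 873 to 1031 bp for members in both assemblies. The share inside another gene moved from 12.0% to 9.26% when shared exon bases were asked for. The other alternatives stayed within the 95% interval of the reported share or median, within 1.5 times a reported count, or on the same side of 0. Joining neighbours at 100 or 500 kb, chosen after seeing the data as were the minimum of 200 bp and the removal of grouped members, gave 73 and 139 grouped members in place of 94. The protein comparison was not run. No paired analysis was possible because each group has 1 sample and the files hold no value per sample.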

Other observations

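Of the remaining stretches with neighbouring members, 1 lay between Brms1 and Vps51 on chromosome 1 and held 9 members beside 33 multi-exon models, with 8 of the 9 recorded in both assemblies. Cd248, which encodes the stromal membrane protein endosialin, was among them. Between Cd53 and Ahcyl1 on chromosome 2 lay 6 members of 252 to 3110 bp, among them Kcna3, and GRCr8 lists 4 potassium channel symbols among the 27 genes there. Between Rbfox2 and Txn2 on chromosome 7 lay 5 members of 201 to 865 bp, all with rCG names, and GRCr8 lists 6 Apol symbols among the 18 genes between these flanks. Of those 5 members, 3 were recorded in both assemblies and 2 in the first alone.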
